A study of Homo sapiens with 8 samples.

Results

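Secreted angiogenesis inhibitors are 10 human genes followed here in pulldowns of RNA with biotin-tagged microRNAs: TIMP1, TIMP2, TIMP3, THBS1, THBS2, SERPINF1, COL18A1, VASH1, ADAMTS1 and SPARC. They were taken by Ensembl ID, in all 8 libraries, from a count table of 60666 gene rows. Of the 10, 8 had reads and passed the filter on low counts, which kept 17351 rows, and TIMP3 and THBS2 had no read. The cells were 786-0, an established human line from a clear cell renal carcinoma that lacks working VHL, cultured in DMEM with high glucose, serum, L-glutamine and sodium pyruvate. All groups were transfected with synthetic biotinylated duplexes for 48 h: 3 libraries with a control microRNA, 2 with miR-2355 (miR-2355-5p in the design text) and 3 with miR-1271 (miR-1271-5p). The design text states triplicates, and 2 miR-2355 libraries were used here. The study asked which RNAs are bound by each microRNA. Every library comes from this 1 cell line, and the labels do not state that replicates are separate cultures, so the p-values speak only for the variation among these libraries, part of which may be technical. The labels call the cells kidney epithelial. That was not checked against marker genes, because the gene table used here paired 0 of the row IDs with a symbol, and the members' symbols come from the definition of the gene set.

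Tumours recruit vessels when signals such as VEGF outweigh inhibitors in the tissue around them, and clear cell renal carcinoma, in which loss of VHL stabilises hypoxia-inducible factors, is known for dense vessels. The members act at different steps. TIMPs block the metalloproteinases that clear a path for endothelial sprouts, and thrombospondins signal to endothelial cells through receptors such as CD36 and CD47. COL18A1 and SERPINF1 yield or encode factors that act on endothelial cells directly. A microRNA pairs with target RNAs chiefly through its seed, bases 2 to 8 from its 5′ end, and a pulldown compares what is recovered with a tagged microRNA and with a control duplex.

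The seeds of the transfected microRNAs are shown because they set which RNAs each could pair with. Sequences are from RefSeq (GRCh38.p14), 5′ to 3′, with the seed in capitals. The third is given because hsa-miR-96-5p was the only other mature microRNA of 2370 in that table with the seed of miR-1271-5p, and none shared that of miR-2355-5p (0 others).
hsa-miR-2355-5p: aUCCCCAGauacaauggacaa
hsa-miR-1271-5p: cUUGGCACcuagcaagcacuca
hsa-miR-96-5p: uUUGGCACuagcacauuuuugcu
The first is encoded on the minus strand at chr2:207110043-207110063 and the second on the plus strand at chr5:176367960-176367981. A perfect seed match would read CUGGGGA for miR-2355-5p and GUGCCAA for miR-1271-5p. Transcript sequences of the members were not analysed here, so no match was searched.

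Libraries held 4122875 to 22864693 counted reads, the fewest in control replicate 2. The 10 genes together took 0.241% to 0.286% of reads in the controls, 0.312% and 0.366% with miR-2355 and 0.282% to 0.328% with miR-1271. Of these reads, THBS1 alone held on average 42.0% in the controls, 48.9% with miR-2355 and 48.6% with miR-1271. Levels below are CPM, reads scaled to a common library size after TMM correction, which makes libraries comparable. CPM is not per transcript length, so levels are compared between groups and never between genes. Each level is a share of the RNA recovered: RNA before the pulldown was not analysed here, and fewer cells holding an RNA, less of it per cell and less recovery of it cannot be told apart. Among the controls, the shallow replicate 2 had the lowest level of TIMP1, TIMP2, SPARC, COL18A1, ADAMTS1 and SERPINF1. It had the highest level of THBS1 and VASH1. For TIMP1 the controls were nearly equal.

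Of the 8 genes tested, THBS1 and ADAMTS1 rose with miR-2355, and THBS1 and SPARC rose with miR-1271 (edgeR quasi-likelihood test, Benjamini-Hochberg adjusted over all 17351 genes, threshold 0.05). No member fell: 0 were called lower in any contrast, in edgeR as in DESeq2, and 0 members with a negative fold change had an unadjusted p under 0.05. Over all tested genes 12.3% were called higher and 17.5% lower with miR-2355, and 17.6% higher and 22.5% lower with miR-1271, so a count of 2 of 8 is not read as a result about the set. The median log2 fold change of the tested members came to 0.38 in the miR-2355 contrast and 0.23 in the miR-1271 contrast. That of all tested genes was 0.00 and 0.01. Single members ran from -0.25 to 0.76 with miR-2355 and from -0.06 to 1.03 with miR-1271, and the medians were not tested. Both contrasts use the same 3 controls, so a member that is high in both is not counted as independent support. Between the pulldowns, ADAMTS1 was the member that differed, and it was higher with miR-2355. Over all tested genes 3.50% were called higher there and 2.65% lower. The median log2 fold change there was -0.08 for the tested members and -0.01 for all tested genes.

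**Figure D1:**
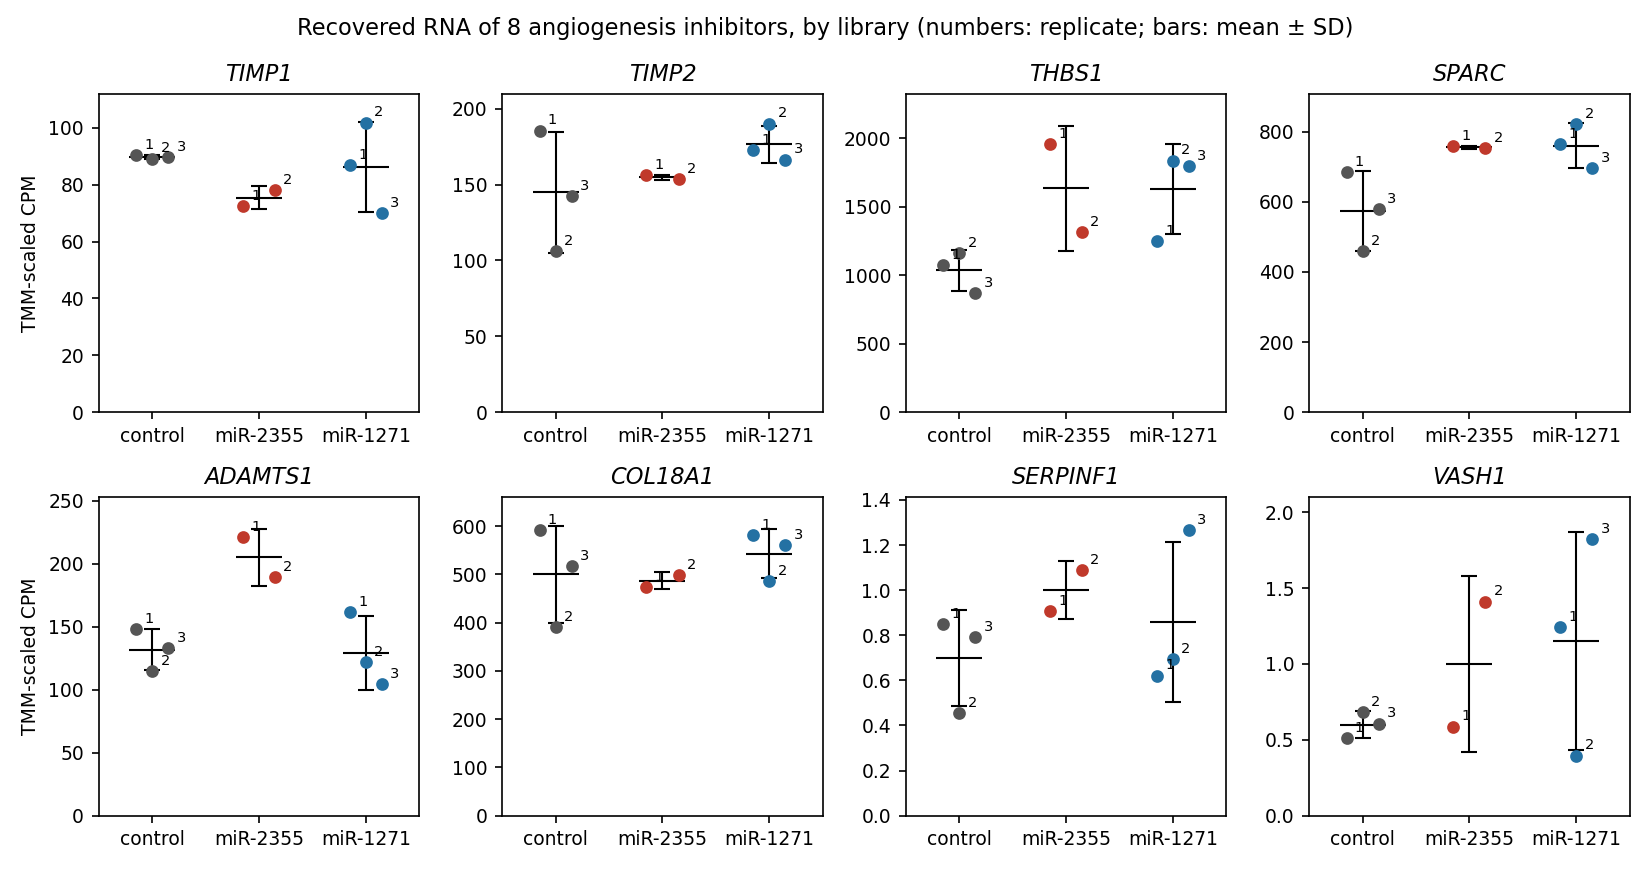
TMM-scaled CPM of the 8 members with reads, by library, in 3 control, 2 miR-2355 and 3 miR-1271 pulldowns; points are libraries labelled with their replicate number, the wide bar is the group mean and the whiskers the SD. THBS1 and SPARC stood above every control in all 5 microRNA libraries, while ADAMTS1 did so in both miR-2355 libraries and in 1 of 3 miR-1271 libraries.

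THBS1 (ENSG00000137801) encodes thrombospondin-1, a large matrix glycoprotein that inhibits endothelial growth and activates latent TGF-beta. The gene lies on the plus strand at chr15:39581079-39599466 (GRCh38.p14, RefSeq), where RefSeq lists 2 genes over its span, THBS1-IT1 on the same strand and FSIP1 on the other. Its level was 1076, 1162 and 867 CPM in control replicates 1 to 3. It was 1959 and 1313 CPM with miR-2355, and 1251, 1836 and 1799 CPM with miR-1271. All 5 microRNA libraries lay above all 3 controls, with the lowest of them, miR-1271 replicate 1, only a little above control replicate 2. With miR-2355 the mean was 1636 ± 457 CPM (SD, n = 2) against 1035 ± 152 (SD, n = 3), or 0.66 ± 0.21 higher on the log2 scale (SE; edgeR adjusted p = 0.0235), which exceeded the fold changes of 90.8% of tested genes. With miR-1271 it was 1629 ± 327 CPM (SD, n = 3), or 0.65 ± 0.19 higher on the log2 scale (SE; edgeR adjusted p = 0.0108), above 87.2% of tested genes. The direct difference was 0.01 (95% interval -0.44 to 0.45; edgeR adjusted p = 0.990), an interval wide enough to hold a moderate difference either way. The miR-2355 libraries disagreed in size: without replicate 1 the log2 fold change was 0.37 (edgeR adjusted p = 0.334); that fit gives its lone library the spread of the remaining groups. Without control replicate 3, the lowest library, THBS1 also missed the threshold in both contrasts, at 0.55 (edgeR adjusted p = 0.107) and 0.54 (edgeR adjusted p = 0.0710).

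THBS2 (ENSG00000186340) encodes thrombospondin-2, the close relative with a like set of receptors. Its row (chr6:169215785-169253846, minus strand) held 0 reads in all 8 libraries, 115709626 reads in all. With 3 reads as the limit that a count of 0 allows, that leaves up to 0.0608 CPM over the control group, 0.0874 CPM over the miR-2355 group and 0.0926 CPM over the miR-1271 group. The limits cover counting error only. The reads of the thrombospondin pair in this set were thus all assigned to THBS1.

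ADAMTS1 (ENSG00000154734) is a secreted metalloproteinase with thrombospondin motifs that binds VEGF and cleaves matrix proteoglycans. It lies at chr21:26835755-26845409, where RefSeq lists 0 other genes over it. Its level was 148, 115 and 133 CPM in control replicates 1 to 3, and 221 and 189 CPM in the miR-2355 libraries, which lay above all other 6. With miR-1271 it was 162, 122 and 104 CPM, a spread that took in the controls. The rise with miR-2355, from 132 ± 16.6 CPM (SD, n = 3) to 205 ± 22.7 (SD, n = 2), was 0.63 ± 0.17 on the log2 scale (SE; edgeR adjusted p = 0.00938). With miR-1271 the log2 fold change was -0.03 (95% interval -0.36 to 0.29; edgeR adjusted p = 0.876). The effects of the microRNAs differed by 0.67 ± 0.17 on the log2 scale (SE, miR-2355 minus miR-1271; edgeR adjusted p = 0.0276), and 93.9% of tested genes had a lower difference. Without miR-2355 replicate 1, again with a lone library given the spread of the remaining groups, the difference from the control was 0.54 and missed the threshold (edgeR adjusted p = 0.113). The direct difference kept its sign but missed it without miR-2355 replicate 1 (0.56, edgeR adjusted p = 0.181) or 2 (0.78, edgeR adjusted p = 0.0866), and without miR-1271 replicate 2 (0.63, edgeR adjusted p = 0.0957) or 3 (0.54, edgeR adjusted p = 0.113).

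SPARC (ENSG00000113140) encodes osteonectin, a collagen-binding matricellular protein that loosens cell contacts with the matrix and binds growth factors such as PDGF. The gene is on the minus strand at chr5:151661096-151686915, with 1 gene, CLMAT3, over it on the other strand. Control replicates 1 to 3 had 686, 459 and 579 CPM. The miR-2355 libraries had 758 and 753 CPM and the miR-1271 libraries 765, 821 and 695 CPM. All 5 lay above the highest control, closest to it in miR-1271 replicate 3. With miR-1271 the mean was 760 ± 62.8 CPM (SD, n = 3) against 574 ± 114 (SD, n = 3), or 0.40 ± 0.15 higher on the log2 scale (SE; edgeR adjusted p = 0.0419). With miR-2355 the log2 fold change was 0.39 ± 0.17 (SE) and did not pass (edgeR adjusted p = 0.0859), and the direct difference was -0.01 (95% interval -0.36 to 0.34; edgeR adjusted p = 0.983). Passing in 1 contrast and not in the other is therefore not evidence of a difference between the microRNAs. The interval is also wide enough to hold a moderate difference either way. The call with miR-1271 was lost with library totals in place of TMM (0.25, edgeR adjusted p = 0.188), and without control replicate 2 (0.26, edgeR adjusted p = 0.173) or 3 (0.41, edgeR adjusted p = 0.103) or miR-1271 replicate 1 (0.41, edgeR adjusted p = 0.0965) or 2 (0.36, edgeR adjusted p = 0.116). With miR-2355, SPARC passed without control replicate 1 (0.54, edgeR adjusted p = 0.0125), with upper-quartile scaling (0.47, edgeR adjusted p = 0.0458) and in DESeq2 (0.42, DESeq2 adjusted p = 0.0309).

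TIMP1 (ENSG00000102265) and TIMP2 (ENSG00000035862) encode secreted inhibitors of matrix metalloproteinases; TIMP2 also takes part in activating pro-MMP2 on the cell surface together with MMP14. Neither passed the test in any contrast. TIMP1 (chrX:47582436-47586789, plus strand) was nearly constant in the controls, at 90.5, 89.2 and 89.8 CPM in replicates 1 to 3. It was 72.5 and 78.2 CPM with miR-2355, below every control, and 87.0, 101.9 and 70.0 CPM with miR-1271, on both sides of them. The log2 fold change with miR-2355 was -0.25 (95% interval -0.56 to 0.05; edgeR adjusted p = 0.201). With miR-1271 it was -0.06 (95% interval -0.33 to 0.21; edgeR adjusted p = 0.740). RefSeq places TIMP1 within the span of SYN1, which is on the other strand. The strand setting of the counting is not given in the sources used here, so reads of overlapping genes cannot be told apart.

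TIMP2 (chr17:78852977-78925387) was spread widely in the controls, at 186, 106 and 143 CPM in replicates 1 to 3. That range took in both miR-2355 libraries, at 156 and 154 CPM. With miR-1271 it was 173, 190 and 167 CPM, of which 1 library exceeded the highest control. The log2 fold change was 0.09 (95% interval -0.28 to 0.45; edgeR adjusted p = 0.756) with miR-2355 and 0.27 (95% interval -0.06 to 0.61; edgeR adjusted p = 0.177) with miR-1271. Without control replicate 1, the highest control, the value with miR-1271 was 0.49 and passed (edgeR adjusted p = 0.00749), and that with miR-2355 was 0.30. Without control replicate 2, the lowest, the value with miR-1271 was 0.10 (edgeR adjusted p = 0.586) and that with miR-2355 was -0.09 (edgeR adjusted p = 0.708). Between the pulldowns TIMP1 differed by -0.19 (95% interval -0.50 to 0.11; edgeR adjusted p = 0.452) and TIMP2 by -0.19 (95% interval -0.56 to 0.18; edgeR adjusted p = 0.565), both miR-2355 minus miR-1271.

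TIMP3 (ENSG00000100234) encodes the TIMP that stays bound to the matrix and also blocks VEGF binding to its receptor KDR. Its row (chr22:32801705-32863041, plus strand) had 0 reads in every library, with the same limits as THBS2. RefSeq lists 2 genes over its span, among them SYN3. No fold change can be given for TIMP3 or THBS2, and neither entered a test.

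COL18A1 (ENSG00000182871) encodes the alpha chain of collagen XVIII, a basement membrane proteoglycan whose C-terminal fragment is endostatin. The RNA level says nothing of the cleavage that frees that fragment. The gene lies at chr21:45405165-45513720 on the plus strand, where RefSeq lists 6 overlapping genes. Control replicates 1 to 3 had 591, 391 and 517 CPM, a range that held both miR-2355 libraries, at 474 and 499 CPM, and all 3 miR-1271 libraries, at 582, 486 and 561 CPM. The log2 fold change was -0.04 (95% interval -0.40 to 0.31; edgeR adjusted p = 0.885) with miR-2355 and 0.12 (95% interval -0.20 to 0.43; edgeR adjusted p = 0.566) with miR-1271. The direct difference was -0.16 (95% interval -0.51 to 0.20; edgeR adjusted p = 0.625). These intervals leave out a doubling in either direction, since none reaches 1 or -1 on the log2 scale.

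SERPINF1 (ENSG00000132386, chr17:1762060-1777565) encodes PEDF, a serpin without protease inhibition that is neurotrophic and acts against vessel growth. It had 20, 2 and 17 reads in control replicates 1 to 3, 17 in each miR-2355 library and 6, 7 and 16 in the miR-1271 libraries. Pooled over a group, that was 0.790 CPM in the controls (exact Poisson 95% interval 0.562 to 1.08), 0.991 CPM (0.686 to 1.38) with miR-2355 and 0.895 CPM (0.600 to 1.29) with miR-1271. The intervals overlapped, and they account for counting error alone, because reads that carry no molecular identifier can be copies of 1 molecule. The log2 fold change was 0.36 (95% interval -0.56 to 1.28; edgeR adjusted p = 0.572) with miR-2355 and 0.19 (95% interval -0.71 to 1.10; edgeR adjusted p = 0.749) with miR-1271.

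VASH1 (ENSG00000071246) encodes vasohibin-1, which endothelial cells make in response to VEGF and which, with its partner SVBP, removes the terminal tyrosine of alpha-tubulin. The gene is on the plus strand at chr14:76761468-76783015, with 1 antisense gene, VASH1-AS1, over it. Reads numbered 12, 3 and 13 in control replicates 1 to 3, 11 and 22 with miR-2355 and 12, 4 and 23 with miR-1271. The groups overlapped: miR-1271 replicate 2 had the lowest level of all, 0.396 CPM, and miR-1271 replicate 3 the highest, 1.82 CPM. Pooled levels were 0.567 CPM (exact Poisson 95% interval 0.377 to 0.820) in the controls. They were 0.962 CPM (0.662 to 1.35) with miR-2355 and 1.20 CPM (0.856 to 1.65) with miR-1271. The control and miR-1271 intervals did not meet, but such intervals account for counting error alone, not for the spread between libraries. Of the tested members VASH1 had the largest fold change in any contrast, 1.03 on the log2 scale with miR-1271, but its 95% interval ran from -0.08 to 2.15 and it did not pass (edgeR adjusted p = 0.130). Without miR-1271 replicate 2, the lowest library, it was 1.44 and passed (edgeR adjusted p = 0.0322), and without replicate 3, the highest, it was 0.51 (edgeR adjusted p = 0.549). With miR-2355 it was 0.76 (95% interval -0.42 to 1.95; edgeR adjusted p = 0.329), and it depended on the library kept: 1.31 without miR-2355 replicate 1 and 0.032 without replicate 2, neither past the threshold.

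**Figure D2:**
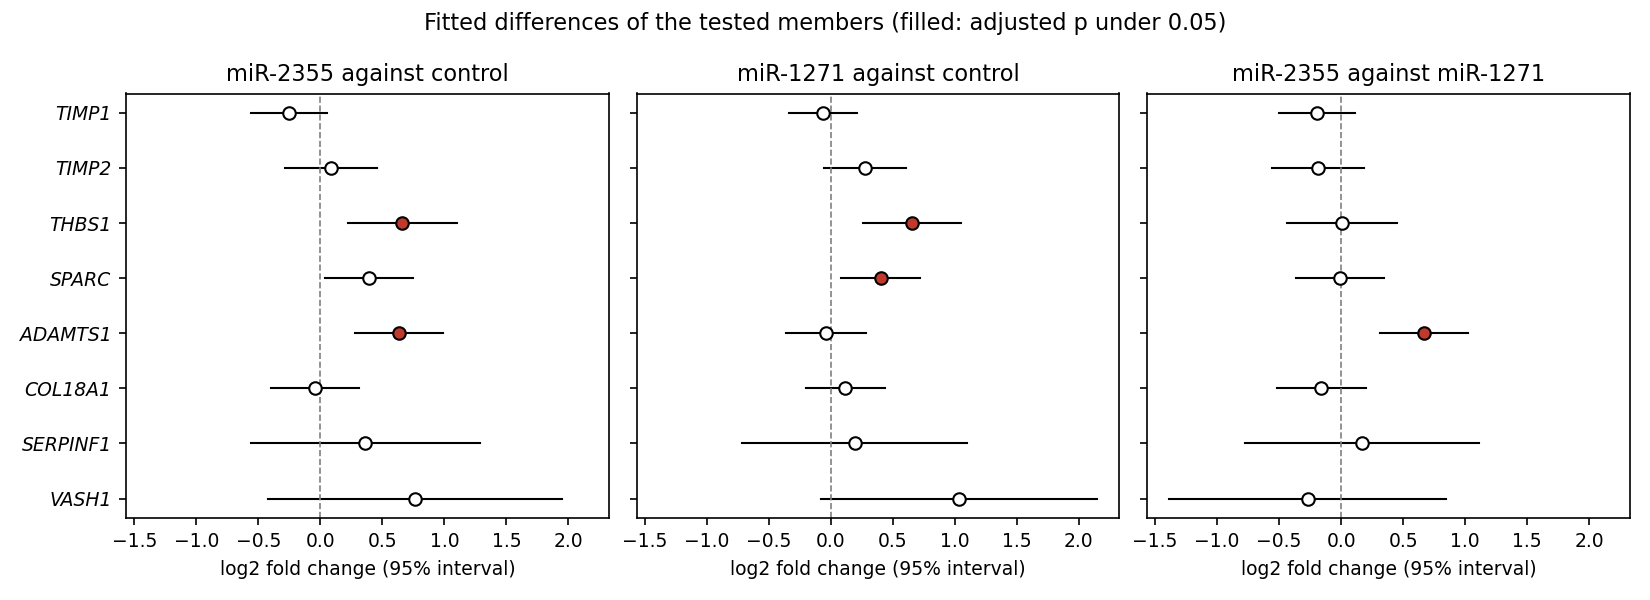
Log2 fold changes of the 8 tested members in the 3 contrasts (points) with 95% intervals from the edgeR fit (lines); filled points passed an adjusted p of 0.05. The filled points are THBS1 and ADAMTS1 with miR-2355, THBS1 and SPARC with miR-1271, and ADAMTS1 in the direct contrast; the intervals of SERPINF1 and VASH1 are the widest.

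Not every shift in level was larger than the spread between libraries. With miR-2355, 5 of 8 tested members had no overlap with the controls, 4 above (THBS1, ADAMTS1, SPARC and SERPINF1) and 1 below (TIMP1). Over all tested genes 24.9% stood above and 27.8% below without overlap in that contrast. With miR-1271, 2 of 8 did not overlap, both above (THBS1 and SPARC), against 23.1% of all tested genes above and 26.8% below. Between the pulldowns ADAMTS1 was above and TIMP2 below without overlap, against 21.1% of all tested genes above and 20.5% below. With shares of that size over all genes, these counts are not read as a result about the set.

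Ratios of reads between members within a library do not depend on how libraries are scaled. They were chosen with the counts in view and are given without a test. ADAMTS1 reads over COL18A1 reads were 0.250, 0.293 and 0.257 in control replicates 1 to 3. They were 0.466 and 0.379 with miR-2355, and 0.278, 0.251 and 0.186 with miR-1271. Both miR-2355 libraries stood above the other 6. For THBS1 over COL18A1 the ratio was 2.16 ± 0.71 (SD, n = 3) in the controls. It averaged 3.38 ± 1.06 (SD, n = 2) with miR-2355 and came to 3.05 ± 0.83 (SD, n = 3) with miR-1271, and the groups overlapped. The ratio in control replicate 2 was 2.97, above miR-2355 replicate 2 and miR-1271 replicate 1. THBS1 reads over SPARC reads also overlapped across the groups, reaching 2.53 in the controls and running from 1.64 to 2.59 in the 5 microRNA libraries. TIMP2 reads over TIMP1 reads ran from 1.19 to 2.05 in the controls, from 1.96 to 2.15 with miR-2355 and from 1.87 to 2.38 with miR-1271. With THBS1 as the partner, ADAMTS1 did not separate the miR-2355 libraries from the controls. THBS1 reads over ADAMTS1 reads, not drawn in the figure, ran from 6.52 to 10.1 in the controls. They ran from 6.95 to 8.86 with miR-2355 and from 7.74 to 17.2 with miR-1271.

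**Figure D3:**
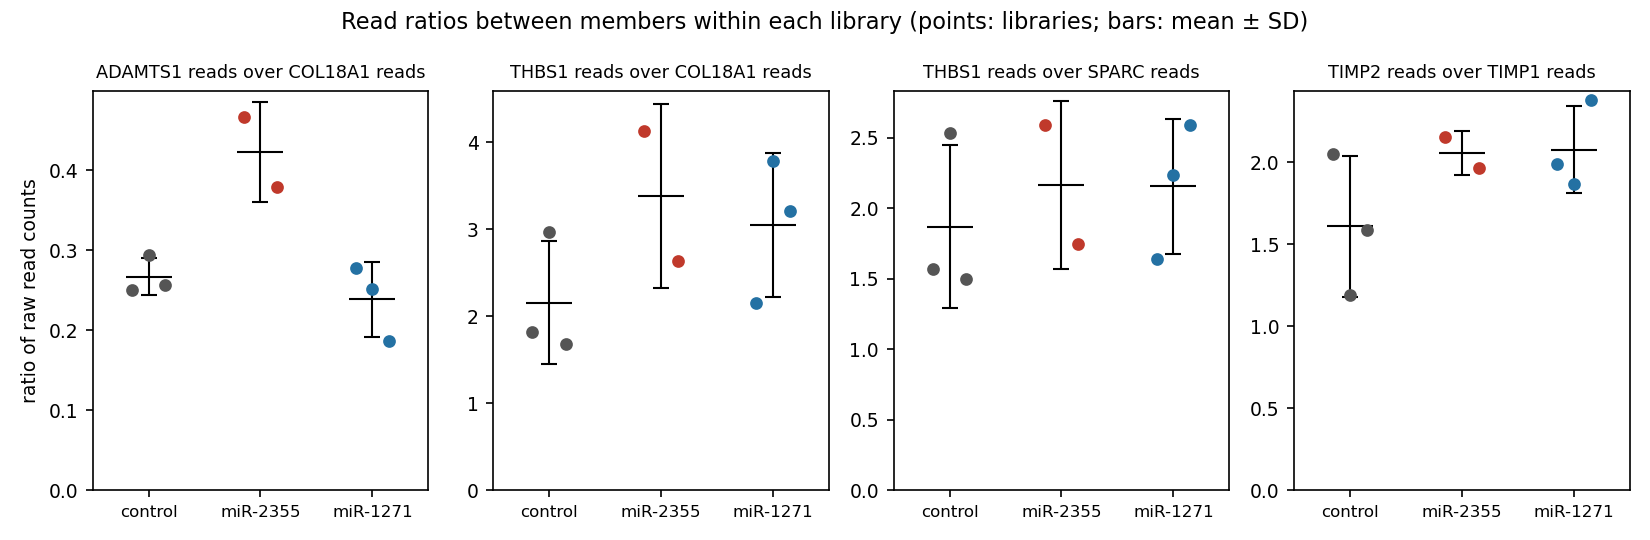
Ratios of raw read counts between pairs of members within each library; points are libraries, the wide bar is the group mean and the whiskers the SD, in 3 control, 2 miR-2355 and 3 miR-1271 pulldowns. In the first panel both miR-2355 libraries, at 0.379 and 0.466, stand above the other 6; in the other panels the groups overlap.

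The sign of the differences of THBS1, ADAMTS1 and SPARC named next held under every alternative run, and the calls did not. THBS1 stayed positive against the control under all 17 alternatives run, from 0.37 to 0.92 with miR-2355 and from 0.50 to 0.82 with miR-1271. ADAMTS1 stayed positive from 0.54 to 0.74 over control with miR-2355 and from 0.54 to 0.87 in the direct contrast. SPARC ranged from 0.25 to 0.54 with miR-2355 and from 0.25 to 0.55 with miR-1271.

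**Figure D4:**
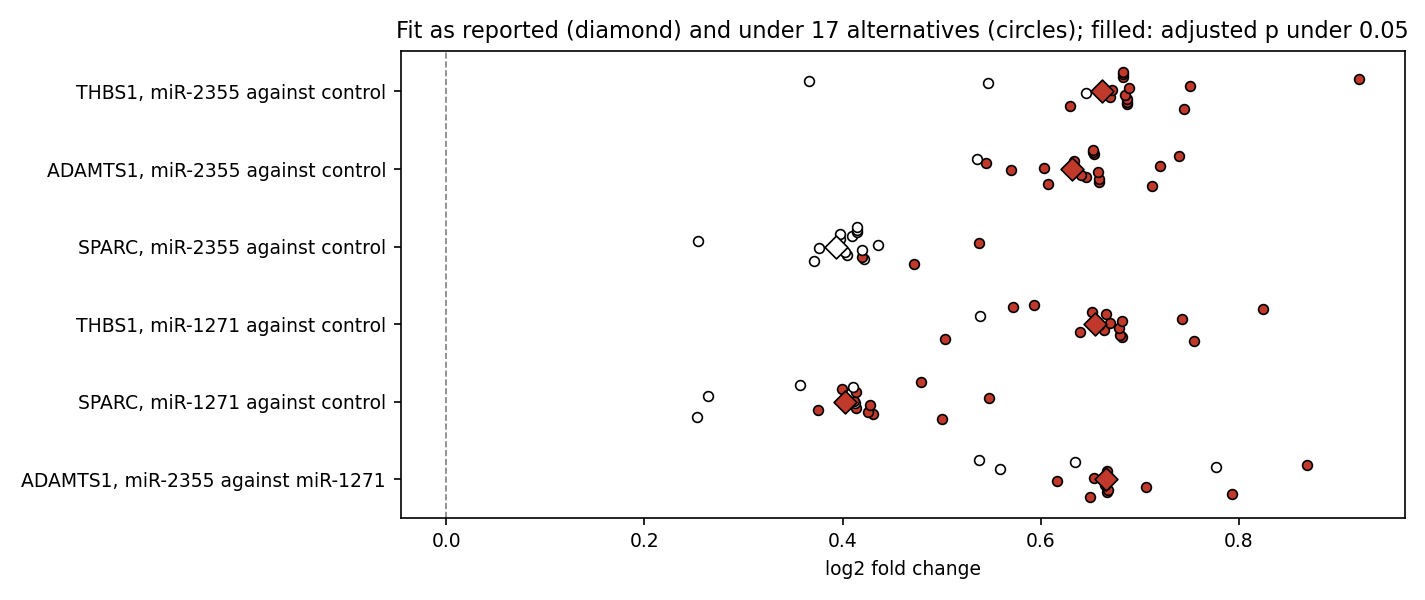
Log2 fold changes of THBS1, ADAMTS1 and SPARC as reported (diamonds) and under 17 alternatives of scaling, tool, filter, design, depth and left-out library (circles); filled symbols passed an adjusted p of 0.05. All values lie above 0, while open symbols show where a call was lost or not made, most often for SPARC.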

How the data were processed

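Per the file header and values, the authors deposited raw, unnormalized read counts for each gene ID, with 1 column per library. The submitters' processing notes name BWA, featureCounts, hg38 and GRCh38. Versions, annotation release and strand handling: not given in the sources used here. Alignment with BWA is unspliced, so reads over exon junctions can be missed, which can lower counts of genes with short exons in all groups.

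From these counts, edgeR 4.0.16 in R 4.3.3 was run: filterByExpr, TMM scaling, and a quasi-likelihood fit of 1 mean per group over all 8 libraries, tested for 3 contrasts with Benjamini-Hochberg adjustment over 17351 genes (called under 0.05). Standard errors are the log2 fold change over the square root of F, and intervals use the fit's degrees of freedom. The procedure was tested on simulated data. Alternatives were other scalings, DESeq2 1.42.0, other filters, a fit per contrast, a replicate block, equal depth, and leaving out each library.

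Members and lists were chosen with earlier results of these data known. Named genes are the 10 members. Lists of other angiogenesis genes, cell markers and genes most like a member (141 listed symbols) were not analysed here, since 0 row IDs matched the gene table. Replicates of a group differed by more than sampling noise.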

Additional observations from a re-analysis of the deposited data

Results flagged for a closer look

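ADAMTS1 was marked because the effects of the microRNAs on it differed in the direct contrast, with a log2 value 0.67 higher with miR-2355 (edgeR adjusted p = 0.0276, and 0.000332 to 0.181 over the alternatives). Both miR-2355 libraries lay above all 3 miR-1271 libraries, at 205 ± 22.7 CPM (SD, n = 2) against 129 ± 29.4 (SD, n = 3). No group held 4 or more libraries, so none was searched for a library far from the others.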

How the results depend on the processing

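Members called higher with miR-2355 over control numbered 2, but 1 with the replicate block. On leaving out 1 control or miR-1271 library they ran from 1 (without control replicate 3) to 3 (without control replicate 1). The share of all tested genes called higher was 12.3% as reported and 8.88% with the block. It was 8.66% without control replicate 3 and 12.1% without control replicate 1. Leaving out a miR-2355 library leaves 1 in its group, so no count is given for those fits. With miR-1271 they numbered 2, but 1 with library totals alone and 1 with the replicate block, and from 0 (without control replicate 3) to 3 (without control replicate 1), with 1 without control replicate 2 or miR-1271 replicate 1. In the direct contrast 1 was called, and from 0 (without either miR-2355 library or miR-1271 replicate 2 or 3) to 1. Members called lower numbered 0 throughout. Deviations of same-numbered libraries from their group means correlated at -0.10 to 0.02, and those of differently numbered ones at -0.10 to 0.10. No signal shared by number was seen, but with 2 or 3 libraries per group this cannot tell whether same-numbered libraries were prepared together. With the block THBS1 stood at 0.65 with miR-2355 (edgeR adjusted p = 0.0700) and SPARC at 0.41 with miR-1271 (edgeR adjusted p = 0.0590), and no other call changed. Library totals shifted the all-gene median of the log2 values by -0.15 with miR-1271 and by 0.13 in the direct contrast; relative to that median SPARC with miR-1271 stood at 0.39, against 0.40 with TMM. The share of calls that were higher was 41.1% with miR-2355 (52.0% with upper-quartile factors), 43.9% with miR-1271 (54.6%, and 28.0% with library totals) and 57.0% in the direct contrast (82.7% with library totals).

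Signs turned only in contrasts in which the member concerned was not called. With upper-quartile factors the log2 values were 0.037 for COL18A1 with miR-2355, 0.039 for TIMP1 and 0.062 for ADAMTS1 with miR-1271, and -0.010 for THBS1 in the direct contrast. With library totals they were -0.030 for COL18A1 with miR-1271 and 0.12 for SPARC in the direct contrast. With the replicate block they were 0.011 for COL18A1 with miR-2355, and -0.013 for THBS1 and 0.031 for VASH1 in the direct contrast. SPARC there was 0.030 without the filter and 0.024 at equal depth. On leaving out 1 library, values with miR-2355 ran from -0.086 to 0.30 for TIMP2 and -0.19 to 0.094 for COL18A1. With miR-1271 they ran from -0.18 to 0.087 for TIMP1, -0.21 to 0.38 for SERPINF1, -0.033 to 0.25 for COL18A1 and -0.21 to 0.11 for ADAMTS1. In the direct contrast they ran from -0.30 to 0.27 for THBS1, -0.99 to 0.27 for VASH1 and -0.065 to 0.057 for SPARC. The cause was not tested. SERPINF1 and VASH1, with 2 to 23 reads per library, have no value under the stricter filter or at equal depth, nor in DESeq2 where it gave no adjusted p (miR-2355 over control and the direct contrast), nor in the fit of the control and miR-1271 libraries alone, and small changes in them could not have been seen.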
